A study of Mus musculus with 16 samples.

Results

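The receptors for GABA and glutamate were described in RNA from the longitudinal muscle and myenteric plexus (LMMP) of the mouse colon. Members were the protein-coding genes whose symbols name a subunit of a GABA-A (Gabra to Gabrr), GABA-B (Gabbr), AMPA (Gria), kainate (Grik), NMDA (Grin) or delta (Grid) receptor or a metabotropic glutamate receptor (Grm), which gave 47 of the 56748 genes counted. They held 19 GABA-A, 2 GABA-B, 4 AMPA, 5 kainate, 7 NMDA, 2 delta and 8 metabotropic glutamate genes. HSCR mice were Ednrb -/-, homozygous for the disrupted endothelin receptor allele Ednrb tm1Ywa, and WT mice were their Ednrb +/+ littermates, all on a hybrid C57BL6/J-129Sv background and a few weeks old. The allele is carried by every cell of the animal, so it is a model of Hirschsprung disease in which no cell type was targeted. Each of the 4 groups (WT proximal, HSCR proximal, WT distal, HSCR distal) had 4 libraries. The titles of the 8 distal libraries name the distal colon while their tissue entries name the proximal colon, and the titles were followed. The study's methods give 4 mice to a group and take both segments from them, but the labels tie no library to a mouse, so p-values measure the spread between these libraries and segments were not paired by mouse.

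GABA-A, AMPA, kainate, NMDA and delta receptors are ion channels assembled from several subunits, each encoded by a gene of its own, whereas GABA-B and metabotropic glutamate receptors act through G proteins. Both transmitters are best known from the central nervous system. In the gut wall they are made by subsets of myenteric neurons, and enteric neurons, glia, muscle and epithelium have each been described as carrying some of the receptors. Endothelin receptor B is needed for neural crest cells to reach the distal gut, and its loss leaves the distal colon without ganglia.

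The 16 libraries held between 21384372 and 45831881 counts on genes, of which mitochondrial genes took 4.32% to 49.8%. By group this share was 7.31% to 49.8% in WT proximal and 5.56% to 20.1% in HSCR proximal libraries. In the distal colon it was 4.32% to 23.7% in WT and 5.93% to 11.3% in HSCR libraries. Expression is given as CPM, the counts on a gene relative to the library's total, scaled by TMM over all 16 libraries, and levels of different genes are compared only as the authors' FPKM, which accounts for gene length. Ednrb ranged from 33.8 to 67.1 CPM in WT proximal, from 7.84 to 37.4 in HSCR proximal and from 11.8 to 43.0 in WT distal libraries. In the HSCR distal group it was between 5.43 and 9.48 CPM in libraries 2 to 4 but 94.7 CPM in the library labelled HSCR distal 1, the highest of all 16. Ednrb was counted over the whole gene, so it checks the label only in part. A list of 12 neuronal genes, such as Elavl3, Elavl4, Uchl1, Snap25, Stmn2 and Syt1, gave summed levels of 592 to 3363 CPM in WT proximal, 83.4 to 1093 in HSCR proximal and 90.9 to 1999 in WT distal libraries. The library labelled HSCR distal 1 had 1037 CPM of this list, against 104, 37.1 and 28.7 CPM in HSCR distal libraries 2, 3 and 4. WT distal library 1 had the lowest Ednrb (11.8 CPM) and the lowest neuron list (90.9 CPM) of its group. Whether these libraries numbered 1 were exchanged could not be told from the labels, both were kept as labelled, and the distal group ranges and fold changes below rest on that labelling. Among the defining neuronal genes, Elavl3 was at 0 in HSCR proximal library 2 and WT distal library 1, and Syt1 in HSCR distal library 4. The 8 glial genes summed to 352 to 800.0 CPM in WT proximal, 111 to 368 in HSCR proximal, 159 to 550.2 in WT distal and 48.1 to 321 in HSCR distal libraries. The 12 epithelial genes, which a clean muscle preparation would lack, summed to 48.8 to 3638 CPM in WT proximal and 245 to 16655 in HSCR proximal libraries. In the distal colon the epithelial sum was 166 to 2427 CPM in WT and 142 to 6238 in HSCR. The 8 smooth muscle genes summed to 4379 CPM in HSCR proximal library 2 and to at least 23679 CPM in every other library. The 7 fibroblast genes summed to 2856 CPM in HSCR proximal library 2 and to at least 5874 CPM in every other library. Fewer cells of a type and less RNA per cell cannot be told apart in these bulk samples. The part of these lists in the results below was not tested.

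Transcripts of most receptor genes were rare in the LMMP. Gabra6, an alpha subunit of cerebellar granule cells, had no count in any library, and the other 46 members had a count in at least 1. A level of at least 10 counts was reached in at least 1 library by 42 members and in every library by 8, namely Gabbr1, Gabra3, Gria1, Gria3, Gria4, Grik4, Grik5 and Grin2d. Per length, Grik5 (mean 9.59 FPKM over the 16 libraries) and Gabbr1 (9.52 FPKM) stood above all other members. Gria3 (2.30), Gabra3 (1.91), Grik3 (1.78), Gria4 (1.56) and Gria1 (1.42) were also above 1 FPKM, and Grin1 had a mean of 0.70 FPKM. At the highest level of each class were therefore Gabbr1, Grik5, Gria3, Gabra3, Grin1, Grm7 and Grid1. The heat map of 38 members with at least 10 counts in a library shows many rows darkest in HSCR distal libraries 2 to 4, while Gabbr1, Gabra3, Gria3, Grik5 and Grin2d had at least 1.175 CPM in every library.

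**Figure D1:**
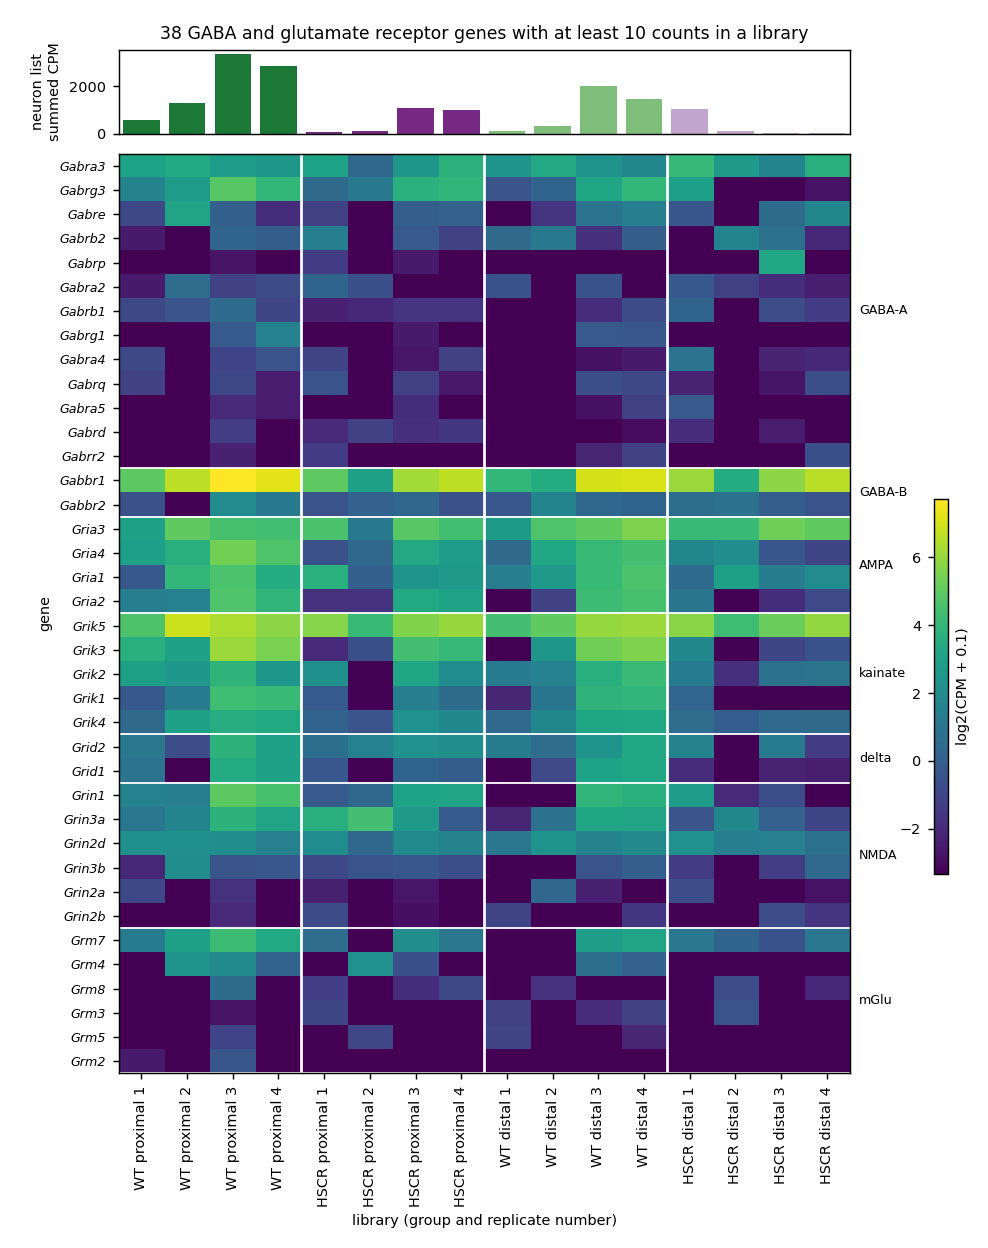
Levels of 38 receptor genes with at least 10 counts in a library, as log2(CPM + 0.1), in each of the 16 libraries (columns, 4 per group), ordered by receptor class and by level, with the summed CPM of the 12 neuronal genes as bars on top. Gabbr1 and Grik5 are bright in every column, and Grik1, Grik3 and Gabrg3 are dark in HSCR distal libraries 2 to 4.

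HSCR and WT were compared in each segment by edgeR's quasi-likelihood test over all genes that passed a filter on low counts, passed by 26 members for the proximal colon and 25 for the distal one. No member passed an adjusted p of 0.05 in either segment, where 0% of the 16664 proximal and 0% of the 17059 distal genes did (at an unadjusted p under 0.05 they numbered 1103 and 450). In the proximal colon 24 of the 26 members tested had a lower mean in HSCR and 2 a higher one. Their median log2 fold change was -1.13, and it moved to -0.68 without WT proximal library 3 and to -1.34 without HSCR proximal library 3. The median of all genes tested there was 0.04, and 7793 of them were lower. Distally, 19 of 25 members were lower in HSCR and 6 higher, with a median of -1.60 beside 0.04 for all 17059 genes, of which 7870 were lower. The distal median moved to -0.88 without WT distal library 4 and to -1.89 without WT distal library 1. Only Gria4 had an unadjusted p under 0.05 in the proximal colon, lower in HSCR, as did 4.13% of all genes tested in that direction and 2.48% in the other. For the distal colon these were 5 members, all lower in HSCR (Grik4, Grik2, Gria4, Grik1 and Grik3), beside 1.76% of all genes lower and 0.879% higher. The HSCR and WT ranges overlapped for every member tested, while 2.83% of the proximal and 1.15% of the distal genes tested lay wholly lower in HSCR. RUVr with 4 factors, the normalization named in the study's methods, takes its factors from the residuals of the same libraries. It was run with a likelihood ratio test, so its calls differ from the main ones in test as well as normalization. It called 13 of the 26 members in the proximal colon and 10 of 25 in the distal colon, beside 21% and 9.51% of all genes. The direction of these calls is not given here. The plot of fold changes by gene shows Grik1 lowest in both comparisons. Next to it lie Grid1 (-2.97) and Grm7 (-2.37) in the proximal colon, and Grik3 (-4.32) and Gria2 (-4.01) in the distal colon. The kainate subunit Grik5 (-0.63 proximal and -0.07 distal) and the AMPA subunit Gria3 (-0.17 and -0.07) lie nearer 0.

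**Figure D2:**
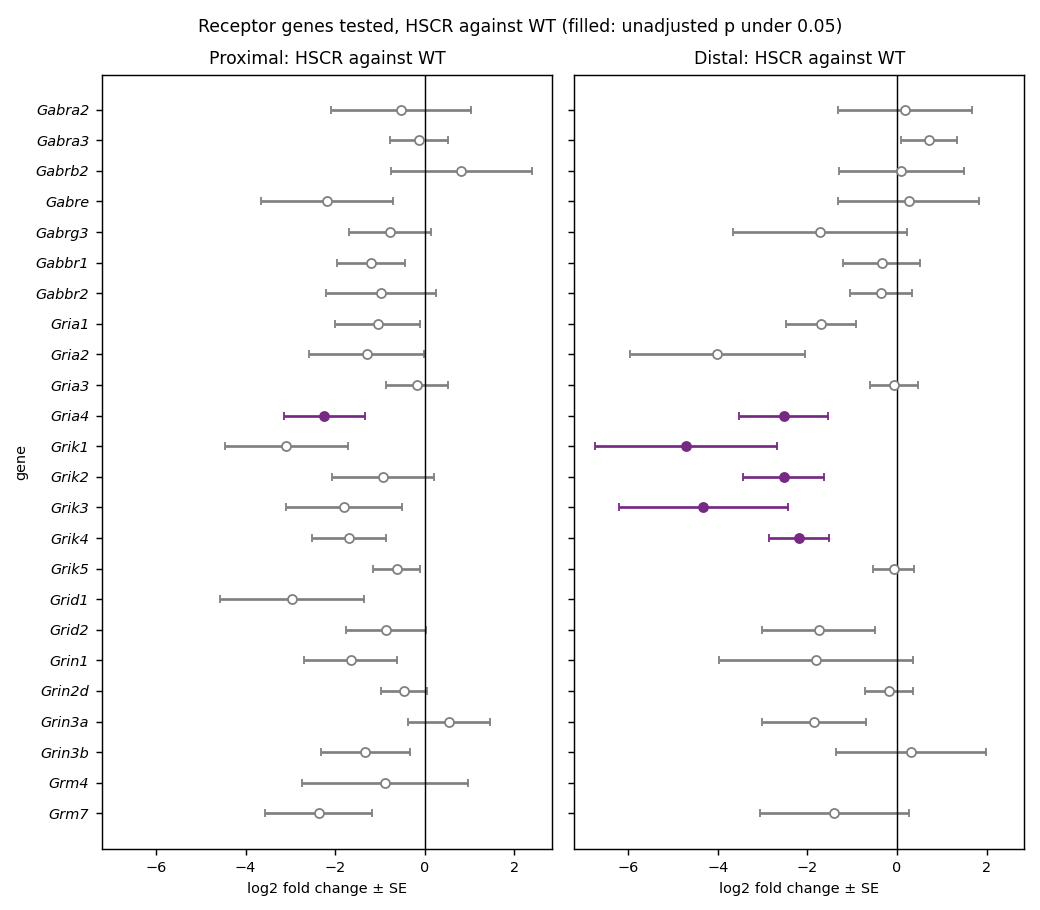
Log2 fold change of HSCR against WT with its standard error for receptor genes tested in the proximal (left) or distal (right) colon, 4 libraries per group; filled points have an unadjusted edgeR p under 0.05. The points lie to the left of 0 for 22 of the 24 genes drawn in the proximal and 17 of the 22 drawn in the distal colon, and none passed after adjustment.

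Kainate receptors are built from the low-affinity subunits Grik1, Grik2 and Grik3, which can form channels alone, and the high-affinity subunits Grik4 and Grik5, which need a low-affinity partner. Their median log2 fold changes were -1.69 (proximal) and -2.53 (distal), with all but Grik5 at an unadjusted p under 0.05 in the distal colon and none in the proximal one. Grik3 (chromosome 4, mm39) measured 12.8, 7.78, 65.6 and 45.2 CPM in WT proximal libraries 1 to 4 and 0.15, 0.55, 21.4 and 16.1 CPM in the HSCR proximal ones. Distal Grik3 was at 0, 5.61, 40.2 and 48.4 CPM in WT and at 3.49, 0, 0.40 and 0.59 CPM in HSCR. The groups overlapped in both segments, since WT distal library 1 had no Grik3 count and the library labelled HSCR distal 1 was above it. The distal log2 fold change was -4.32 ± 1.88 (SE), with an unadjusted p of 0.0472, and the proximal one was -1.80 ± 1.30. Grik1 was likewise near absent from 3 of the 4 HSCR distal libraries, at 1.12, 0, 0 and 0 CPM beside 0.13, 1.88, 14.3 and 15.2 CPM in WT distal. Its proximal values were 0.72, 2.2, 19.6 and 17.2 CPM in WT and 0.77, 0, 2.52 and 1.41 CPM in HSCR. The log2 fold change of Grik1 was -4.72 ± 2.03 in the distal colon, with an unadjusted p of 0.0452, and -3.09 ± 1.37 in the proximal colon. Without the library labelled HSCR distal 1, which left no Grik1 count in the group, the fitted distal value was -11.19, and it was -4.23 without WT distal library 4. The fitted fold of a gene at 0 in 3 of 4 libraries depends on the prior count.

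Grik2 measured 2.19, 2.83, 12.01 and 18.4 CPM in WT distal and 2.32, 0.18, 1.69 and 1.83 CPM in HSCR distal libraries. Only the library labelled HSCR distal 1 reached above the lowest WT library. This gave a distal log2 fold change of -2.53 ± 0.91, with an unadjusted p of 0.0216, and a proximal one of -0.93 ± 1.13. Grik4 had the smallest p of all members in either segment, at 1.26, 3.26, 8.84 and 9.43 CPM in WT distal and 1.45, 0.88, 1.27 and 1.32 CPM in HSCR distal libraries. The 4 HSCR values lay close together, at 1.23 ± 0.249 CPM (SD, n = 4), while the WT values were at 5.70 ± 4.06 CPM. The distal log2 fold change of Grik4 was -2.19 ± 0.67 with an edgeR p of 0.0102 and a Benjamini-Hochberg adjusted p of 1.00. In the proximal colon its values were 1.29, 7.96, 11.8 and 10.5 CPM in WT and 1.05, 0.66, 4.69 and 3.46 CPM in HSCR (log2 fold change -1.69 ± 0.82).

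Grik5 did not share this pattern. It measured 21.2, 32.4, 63.5 and 65.9 CPM in WT distal and 54.4, 19.3, 36.9 and 61.2 CPM in HSCR distal libraries. The group means of 45.7 ± 22.4 and 42.9 ± 18.8 CPM (SD, n = 4) differed by less than the spread within either, with a log2 fold change of -0.07 ± 0.46 that changed sign in 4 of 8 fits with 1 library left out. In the proximal colon Grik5 measured 24.6, 119, 81.3 and 55.5 CPM in WT and 51.9, 17.0, 49.6 and 63.7 CPM in HSCR (log2 fold change -0.63 ± 0.52). Grik5 thus took 94.4% of the kainate FPKM in HSCR distal, 62.6% in WT distal, 81.8% in HSCR proximal and 65.9% in WT proximal libraries. By library this share was 91.5% to 96.5% in HSCR distal and 54.5% to 91.2% in WT distal, the highest WT value being that of library 1, which also had the lowest neuron list of its group. The dot plot of kainate subunits shows the low HSCR distal points of Grik1 to Grik4 beside the wide, overlapping groups of Grik5.

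**Figure D3:**
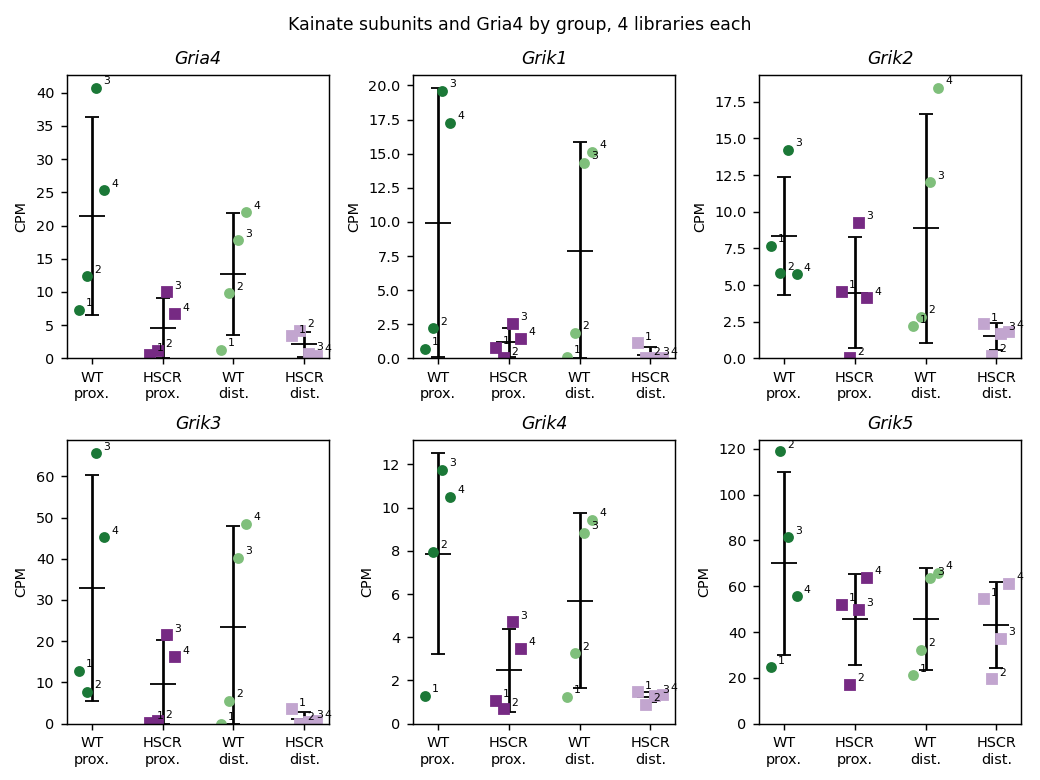
CPM of Gria4 and the 5 kainate subunits by group; each point is a library with its replicate number, and bars are the mean ± SD of 4 libraries, the lower bar ending at 0 where the SD exceeds the mean. WT libraries 3 and 4 carry the high values of Grik1 and Grik3, and the Grik4 points of HSCR distal lie between 0.88 and 1.45 CPM.

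AMPA receptors, which carry fast excitatory transmission, are tetramers of Gria1 to Gria4. The class's median log2 fold change was -1.18 in the proximal colon, and of the 4 genes Gria4 alone had an unadjusted p under 0.05, in both segments. Gria4 measured 7.32, 12.4, 40.7 and 25.3 CPM in WT proximal and 0.57, 1.18, 9.95 and 6.64 CPM in HSCR proximal libraries. Only HSCR library 3 exceeded the lowest WT library. The proximal log2 fold change of Gria4 was -2.24 ± 0.91, with an unadjusted p of 0.0357 and an edgeR adjusted p of 0.747. Distal Gria4 was at 1.32, 9.80, 17.8 and 22.0 CPM in WT and at 3.30, 4.12, 0.68 and 0.39 CPM in HSCR. The log2 fold change there was -2.52 ± 0.99, with an unadjusted p of 0.0315. Gria2, whose subunit limits calcium entry through the channel, measured 0, 0.34, 18.9 and 22.4 CPM in WT distal and 1.84, 0, 0.17 and 0.43 CPM in HSCR distal libraries. Its log2 fold change was -4.01 ± 1.96 in the distal and -1.30 ± 1.29 in the proximal colon. Gria1 had log2 fold changes of -1.69 ± 0.78 (distal) and -1.05 ± 0.95 (proximal).

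Gria3 stood apart from its class as Grik5 did. It measured 6.28, 25.7, 32.1 and 47.8 CPM in WT distal and 17.7, 17.1, 39.0 and 32.6 CPM in HSCR distal libraries. In the proximal colon the values were 7.89, 32.8, 22.4 and 20.5 CPM in WT and 23.5, 2.11, 28.8 and 20.9 CPM in HSCR. The log2 fold changes were -0.07 ± 0.53 and -0.17 ± 0.69, which changed sign in 4 and 2 of 8 fits with 1 library left out, and the groups overlapped throughout. Of the AMPA FPKM, Gria3 made up 25.5% in WT proximal, 48.0% in HSCR proximal, 37.4% in WT distal and 72.0% in HSCR distal libraries. Gria4 went the other way, from 40.4% to 18.3% in the proximal and from 26.5% to 9.43% in the distal colon. By library the Gria3 share was 47.6% to 88.2% in HSCR distal and 31.7% to 50.5% in WT distal, so the ranges overlapped. The share has no test here.

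**Figure D4:**
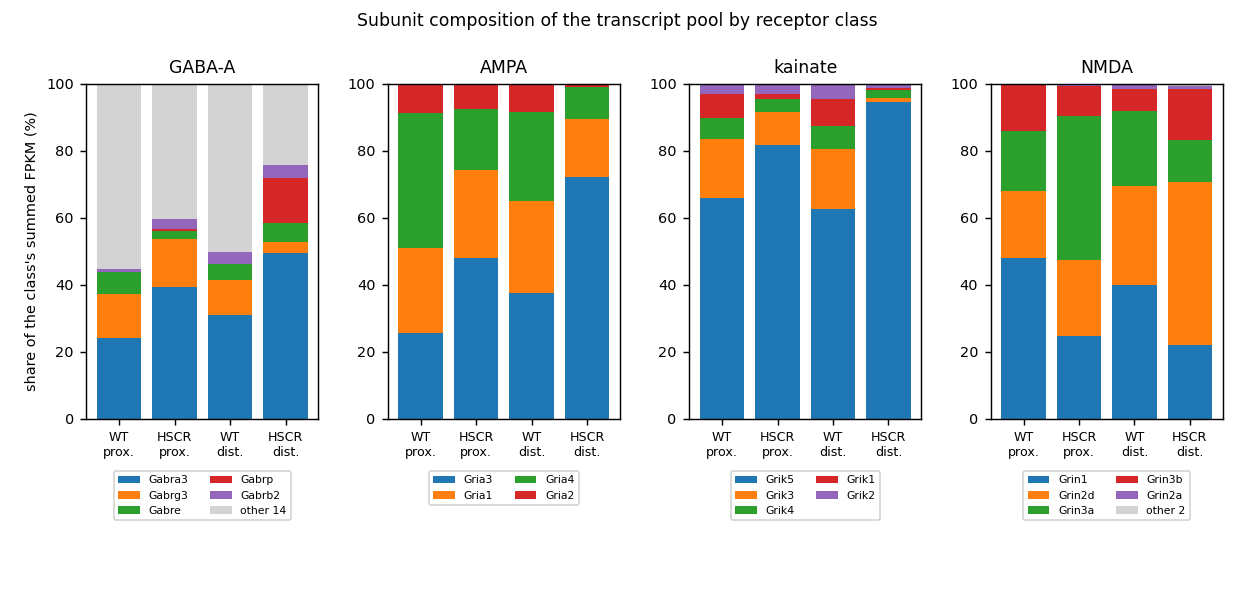
Share of each class's summed FPKM (percent, y axis) taken by each subunit gene in the 4 groups (mean of 4 libraries each) for GABA-A, AMPA, kainate and NMDA receptors; grey is the sum of the remaining genes of a class. Gria3 grows from 37.4% to 72.0% and Grik5 from 62.6% to 94.4% between WT distal and HSCR distal.

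The promoters of 32 of the 47 members, 39 entries in all, were found in RefSeq (GRCm38.p6; 250 bases before to 50 after the start). They were searched on both strands for a GC box (GGGCGG) and for the paired half-sites TTCAGCACC and GGACAG, separated by any 2 bases, which the neuronal gene repressor REST is known to bind. The paired half-sites with at most 1 mismatch over their 15 bases were found in 1 member promoter, that of Gria2, and in 0.0578% of all 32851 promoters. A GC box was found in 19 of the 39 member promoters and in 35.7% of all promoters. The Gria2 promoter is shown because it holds the match, with the 17 bases spanned by it in capitals, which read on the opposite strand. The promoters of Grik3 and Grik5 are shown because in HSCR distal libraries 2 to 4 these kainate genes were at most at 0.59 and at least at 19.3 CPM, and their capitals mark GC boxes. These matches are letters only, and no binding was measured.
Gria2, chr3:80802836-80803085, minus strand: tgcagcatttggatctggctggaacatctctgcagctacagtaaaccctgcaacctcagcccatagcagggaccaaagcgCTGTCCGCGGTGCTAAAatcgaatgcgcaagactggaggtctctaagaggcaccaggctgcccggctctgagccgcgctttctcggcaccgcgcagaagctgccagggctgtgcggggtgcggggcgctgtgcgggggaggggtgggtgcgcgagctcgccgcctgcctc
Grik3, chr4:125490446-125490695, plus strand: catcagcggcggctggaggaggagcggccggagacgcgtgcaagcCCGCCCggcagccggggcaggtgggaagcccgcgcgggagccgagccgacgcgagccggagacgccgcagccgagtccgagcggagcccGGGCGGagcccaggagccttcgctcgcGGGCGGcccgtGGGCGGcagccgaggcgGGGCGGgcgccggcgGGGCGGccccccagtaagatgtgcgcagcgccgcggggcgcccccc
Grik5, chr7:25072370-25072619, minus strand: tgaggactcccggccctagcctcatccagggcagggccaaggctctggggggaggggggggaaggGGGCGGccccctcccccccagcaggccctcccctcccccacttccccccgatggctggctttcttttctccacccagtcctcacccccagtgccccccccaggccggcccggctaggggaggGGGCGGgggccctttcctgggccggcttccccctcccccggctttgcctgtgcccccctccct

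NMDA receptors need the glycine-binding subunit Grin1. It measured 2.80, 2.57, 30.9 and 22.9 CPM in WT proximal and 0.75, 1.24, 8.36 and 8.51 CPM in HSCR proximal libraries. The distal values were 0, 0, 14.9 and 12.7 CPM in WT and 6.82, 0.15, 0.54 and 0 CPM in HSCR, where the library labelled HSCR distal 1 held nearly all of the group's counts. Without a count in WT distal libraries 1 and 2, the groups overlapped, and the log2 fold changes were -1.66 ± 1.05 (proximal) and -1.81 ± 2.17 (distal). The distal value was -4.95 without the library labelled HSCR distal 1 and -1.07 without WT distal library 3. Grin2d, a glutamate-binding subunit, lay between 1.21 and 4.88 CPM in all 16 libraries. Its position overlaps Kdelr1, which had 64370 counts to its 1837, and whether the counting used strand is not stated, so reads of the pair cannot be told apart. Grin3a, a subunit that lowers calcium entry, ranged from 0.78 to 21.4 CPM in HSCR proximal libraries and had a log2 fold change of 0.54 ± 0.92 there. Grin3b reached 4.22 CPM in WT proximal library 2 and at most 1.26 CPM in the others, and overlaps Tmem259 (56575 counts). Grin2a, Grin2b and Grin2c were tested in no comparison.

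GABA-B receptors are obligate dimers in which Gabbr1 binds GABA and Gabbr2 carries it to the surface and couples to the G protein. Gabbr1 (chromosome 17, 37356858 to 37385959, mm39) measured 30.7, 98.7, 211 and 153 CPM in WT proximal and 31.5, 7.99, 73.1 and 102 CPM in HSCR proximal libraries. The distal values were 15.9, 11.3, 130 and 138 CPM in WT and 67.1, 11.2, 54.9 and 95.5 CPM in HSCR. The log2 fold changes of -1.20 ± 0.76 (proximal) and -0.34 ± 0.87 (distal) were within the spread, and the groups overlapped in both. Gabbr2 was between 0 and 3.92 CPM. Per length, Gabbr1 took 98.1% of the class's FPKM, and its mean was 65.3 times that of Gabbr2 in WT proximal, 54.4 times in HSCR proximal, 39.9 times in WT distal and 40.8 times in HSCR distal libraries.

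GABA-A receptors are pentamers, usually of alpha, beta and gamma subunits. Of their FPKM over all libraries, the alpha subunit Gabra3 took 34.0% and the gamma subunit Gabrg3 10.7%. Gabra3 measured 8.32, 10.6, 6.70 and 5.57 CPM in WT proximal and 8.49, 1.18, 5.64 and 13.6 CPM in HSCR proximal libraries. Its distal values lay at 5.18, 10.05, 5.04 and 3.21 CPM in WT and at 16.8, 6.09, 3.02 and 12.2 CPM in HSCR. The groups overlapped, and the log2 fold change was 0.71 ± 0.62. Gabrg3 measured 0.64, 1.09, 8.84 and 15.8 CPM in WT distal libraries, 7.43 CPM in the library labelled HSCR distal 1 and at most 0.05 CPM in the other 3. It therefore had almost no counts in the 3 HSCR distal libraries in which Gabra3 was between 3.02 and 12.2 CPM. Of the 19 GABA-A genes, 7 were tested in the proximal colon (6 lower and 1 higher in HSCR, median log2 fold change -0.77) and 8 in the distal colon (3 lower and 5 higher, median 0.14).

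Gabrp, which encodes the pi subunit, known mostly from epithelia, had 334 counts (9.43 CPM) in HSCR distal library 3 and at most 11 in any other. That library had 6238 CPM of the epithelial list, while HSCR proximal library 2, with 16655 CPM of it, had no Gabrp count. The part of epithelium in the Gabrp counts was not tested. The rho subunits Gabrr1, Gabrr2 and Gabrr3 reached at most 0.55 CPM. Gabrb1 lay between 0.39 and 1.34 CPM in WT proximal and between 0.10 and 0.23 CPM in HSCR proximal libraries, the only member whose 2 proximal groups did not overlap, but it did not pass the filter and overlaps Gabra4. Several GABA-A genes lie in clusters (mm39). Gabrg1, Gabra2, Gabra4 and Gabrb1 lie on chromosome 5 (70908390 to 72306380), and Gabre, Gabra3 and Gabrq on the X chromosome (71299605 to 71886208).

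Among metabotropic glutamate receptors, Grm7, a presynaptic receptor that lowers cyclic AMP, took 72.0% of the FPKM and Grm4, of the same group, 18.6%. Grm7 measured 2.22, 7.998, 18.9 and 10.3 CPM in WT proximal and 1.42, 0, 4.31 and 1.98 CPM in HSCR proximal libraries, with a log2 fold change of -2.37 ± 1.19. Distal libraries had 0, 0, 6.94 and 8.56 CPM in WT and 2.07, 1.09, 0.59 and 1.90 CPM in HSCR (log2 fold change -1.40 ± 1.66), so the HSCR libraries lay between the WT libraries without a count and those with most. Grm4 had no count in any HSCR distal library, and was at 0, 0, 1.47 and 1.00 CPM in WT distal ones. Grm2, Grm3, Grm5, Grm6 and Grm8 reached at most 1.39 CPM in any library, and Grm2, Grm5 and Grm6 were tested in no comparison. Of the delta receptors, which bind secreted cerebellins, Grid1 was at 1.72, 0, 10.96 and 7.82 CPM in WT proximal and at 0.70, 0, 1.08 and 0.85 CPM in HSCR proximal libraries (log2 fold change -2.97 ± 1.60). Distal Grid1 was at 0, 0.45, 8.31 and 9.53 CPM in WT and at most 0.17 CPM in HSCR.

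The genotype difference was also read within libraries 1 and 2 and within libraries 3 and 4. Libraries 1 and 2 of each group carry names of one series. Names of libraries 3 and 4 begin with CM in WT proximal and in HSCR proximal library 4, and with LC in the others. Among WT libraries 3 and 4, name series and segment therefore cannot be told apart. The mean log2 CPM difference of HSCR minus WT was taken within each pair of numbers, which in proximal libraries 3 and 4 mixes CM and LC names. For Gria4 in the proximal colon it was -3.51 in libraries 1 and 2 and -1.98 in libraries 3 and 4. For distal Gria4 it was 0.03 and -5.23. The distal differences of Grik1 (-2.02 and -9.99), Grik2 (-1.89 and -3.07), Grik3 (-0.34 and -6.47) and Grik4 (-0.84 and -2.80) were negative in both. In libraries 1 and 2, Grik3 had 0 and 200 counts in WT distal and 125 and 0 in HSCR distal. Grik1 had 4 and 67 counts in WT and 40 and 0 in HSCR there, and no count in HSCR distal libraries 3 and 4. The differences of Grik1 and Grik3 therefore depend on the prior count, and both genes were higher in HSCR in libraries 1. Grm7 (6.71 and -2.84) and Grin1 (6.17 and -7.27) had opposite signs, and neither had a count in WT distal libraries 1 and 2. The summed neuron list rose from 90.9 CPM in WT distal library 1 to 1037 CPM in the library labelled HSCR distal 1. It fell from 305 to 104 CPM in distal libraries 2, from 1999 to 37.1 CPM in libraries 3 and from 1469 to 28.7 CPM in libraries 4. Without the library labelled HSCR distal 1, 10 members instead of 5 had an unadjusted p under 0.05 in the distal colon, 9 without WT distal library 1, 3 without HSCR distal library 3 or 4, 2 without WT distal library 3 and 1 without WT distal library 4. In the proximal colon the number was 0 without WT library 3, WT library 4 or HSCR library 1, 3 without WT library 1 or 2, and 2 without HSCR library 2 or 3. Shares over all genes in these fits are not given here, so the counts show dependence on single libraries and no result about the receptors.

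Plotted against the summed neuron list, the receptor genes took different courses. In HSCR distal libraries 3 and 4, with the 2 lowest neuron sums of all 16 (37.1 and 28.7 CPM), Grik3 was at 0.40 and 0.59, Gria4 at 0.68 and 0.39, and Grin1 at 0.54 and 0 CPM. In WT proximal libraries 3 and 4, with the 2 highest neuron sums, Grik3 was at 65.6 and 45.2, Gria4 at 40.7 and 25.3, and Grin1 at 30.9 and 22.9 CPM. Gria3 was at 39.0 and 32.6 CPM in that HSCR pair and at 22.4 and 20.5 CPM in that WT pair. Grik5 (36.9 and 61.2 CPM against 81.3 and 55.5 CPM) and Gabbr1 (54.9 and 95.5 CPM against 211 and 153 CPM) lay between. These pairs differ in genotype and segment as well as in the neuron sum. In HSCR proximal library 1 (neuron sum 83.4 CPM), Gria3, Grik5 and Gabbr1 were at 23.5, 51.9 and 31.5 CPM. In WT distal library 1 (90.9 CPM) they were at 6.28, 21.2 and 15.9 CPM. HSCR distal library 2 (104 CPM) had 17.1, 19.3 and 11.2 CPM, and HSCR proximal library 2 (105 CPM) had 2.11, 17.0 and 7.99 CPM. HSCR proximal library 2 also had the lowest smooth muscle sum of all 16 (4379 CPM) and the highest epithelial sum (16655 CPM). Without it the proximal log2 fold changes were 0.20 for Gria3 and 0.23 for Gabra3, beside -0.17 and -0.13 with it. The part of its tissue content in these values was not tested.

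**Figure D5:**
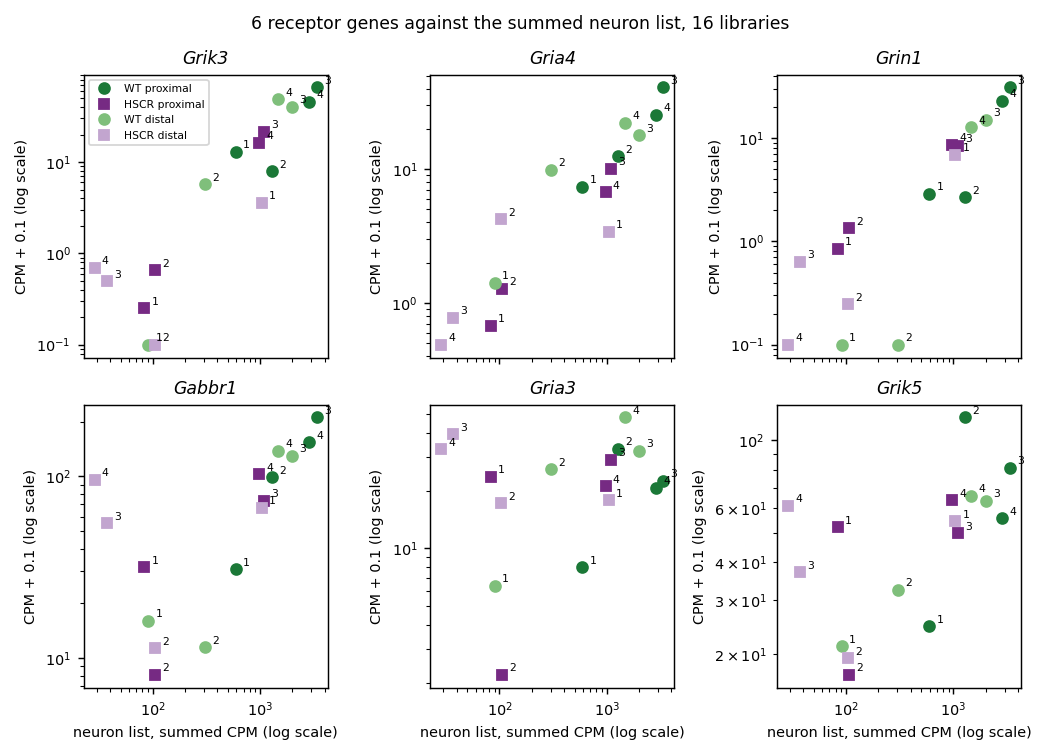
CPM + 0.1 of 6 receptor genes (y axis, log scale) against the summed CPM of the 12 neuronal genes (x axis, log scale), 1 point per library numbered by replicate, with WT as circles and HSCR as squares. Grik3, Gria4 and Grin1 run from the lower left to the upper right, whereas Gria3 is higher in HSCR distal libraries 3 and 4, at the far left (39.0 and 32.6 CPM), than in WT proximal libraries 3 and 4, at the far right (22.4 and 20.5 CPM). Gria3 is lowest in HSCR proximal library 2 (2.11 CPM), where the neuron sum is 105 CPM.

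The segments were then compared within each genotype. In WT mice 24 of 28 members tested were lower in distal than in proximal colon, with a median log2 fold change of -0.52 (0.03 over all genes), which was -0.20 without WT distal library 1 and -0.90 without WT distal library 3. No member passed an adjusted p of 0.05, as 0.0181% of all genes did, or an unadjusted p under 0.05, as 5.23% did. The 3 members with the smallest p were Grik5 (log2 fold change -0.62 ± 0.49), Grin3b (-1.93 ± 1.62) and Grm4 (-1.99 ± 1.76). In HSCR mice 17 of 24 members were lower in the distal colon, with a median of -0.58 (-0.04 over all genes), and none passed an adjusted p of 0.05, as 0% of all genes did. That median was -0.17 without HSCR distal library 3 and -0.90 without HSCR proximal library 2. Grin3a had an unadjusted p of 0.0201 there (log2 fold change -2.91 ± 1.03), as did 1.49% of all genes. Its 4 HSCR proximal values were 12.1, 21.4, 5.94 and 0.78 CPM and its HSCR distal values 0.64, 3.25, 1.02 and 0.39 CPM, which overlap. Without the library labelled HSCR distal 1 the number of members at an unadjusted p under 0.05 was 6, and without HSCR proximal library 1 or 2 it was 2. The 5 kainate genes had a median of -1.58 in this comparison, none at an unadjusted p under 0.05. Whether the genotype difference itself differed between segments was tested over all 16 libraries. None of 33 members passed an adjusted p of 0.05 (0% of all genes) or an unadjusted p under 0.05 (1.44%). The number at an unadjusted p under 0.05 was 3 without the library labelled HSCR distal 1, 4 without HSCR distal library 2, and 1 without WT proximal library 2 or WT distal library 4. For these counts and those of HSCR segments with a library left out, shares over all genes are likewise not given. The kainate differences between the segments' log2 fold changes were -1.63 ± 2.32 for Grik1, -1.58 ± 1.51 for Grik2, -2.52 ± 2.24 for Grik3, -0.49 ± 1.04 for Grik4 and 0.57 ± 0.71 for Grik5.

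Genes that make, move or anchor these receptors and their ligands were listed by role and read the same way. Of 34 genes for glutamate receptor auxiliary subunits and scaffolds, 29 were tested in the proximal colon, of which 24 were lower in HSCR, 6 of them at an unadjusted p under 0.05, beside 4.13% of all genes tested there, of which 7793 of 16664 were lower. Cacng4, a transmembrane AMPA receptor regulatory protein, measured 27.5, 44.9, 23.1 and 25.4 CPM in WT proximal and 3.72, 3.77, 5.601 and 3.42 CPM in HSCR proximal libraries. Every HSCR value lay below every WT value. The log2 fold change was -2.89 ± 0.34, with an edgeR p of 1.21e-05 and an adjusted p of 0.101. No gene of the proximal comparison had a smaller adjusted p, a value that genes with different p can share. Distal Cacng4 was at 3.51, 17.3, 15.9 and 11.49 CPM in WT and at 16.8, 4.49, 0 and 0.02 CPM in HSCR (log2 fold change -1.12 ± 1.60), where the library labelled HSCR distal 1 lay among the highest. Cbln2, a cerebellin that joins delta receptors to presynaptic neurexin, measured 5.09, 12.5, 47.4 and 34.4 CPM in WT proximal and 0, 0, 0.40 and 0.56 CPM in HSCR proximal libraries. The groups did not overlap, and the log2 fold change was -6.68 ± 1.41 (edgeR adjusted p = 0.525). In the distal colon 30 of the 34 were tested, with 22 lower in HSCR (7870 of all 17059 genes), 3 of them at an unadjusted p under 0.05 (1.76% of all genes), including the synaptic scaffolds Dlg2 (log2 fold change -1.63 ± 0.50) and Dlg4 (-0.96 ± 0.32).

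Of 22 genes for GABA synthesis, transport and receptor anchoring, 15 were tested in each segment. In the proximal colon 11 were lower in HSCR, 2 of them at an unadjusted p under 0.05 (4.13% of all genes), namely Kctd8, a GABA-B auxiliary subunit (log2 fold change -1.84 ± 0.77), and Lhfpl4, a GABA-A auxiliary subunit (-2.05 ± 0.88). In the distal colon 11 were lower and none had such a p, the smallest being that of Kctd12, another GABA-B auxiliary subunit (log2 fold change -0.996 ± 0.45). Slc32a1, the vesicular GABA transporter, named after its values were seen, had no count in any of the 16 libraries, where 3 counts would have been at most 0.215 CPM. Of 14 genes for glutamate synthesis and transport, 11 were tested in each segment. None of the 11 tested had an unadjusted p under 0.05 in the proximal colon (6 lower and 5 higher in HSCR). In the distal colon 7 were lower, 1 of them at such a p (1.76% of all genes), the glial glutamate transporter Slc1a3 (log2 fold change -1.69 ± 0.70). Slc1a3 measured 2.00, 7.41, 8.99 and 14.9 CPM in WT distal and 0.87, 1.57, 4.24 and 3.68 CPM in HSCR distal libraries, and WT library 1 lay within the HSCR range.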

How the data were processed

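RNA-seq was read in 16 LMMP libraries, 4 per genotype and segment, grouped by their titles. Per the study's methods and the submitters' processing notes, the authors used HISAT2 2.2.1 for alignment to mm39 and featureCounts 2.0.6 with a GENCODE model for counting. Strand use in counting is not given in the sources used here. The authors deposited raw whole-number counts. Their deposited FPKM are the counts divided by gene length and by 1 factor for each library. The deposited fold changes and p-values of the authors' own comparisons were not used. Of 56748 genes, 23907 had no count in any library.

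Counts were tested with edgeR 4.0.16 (R 4.3.3; filterByExpr with a minimum count of 10, TMM factors, quasi-likelihood F test), in each segment, within each genotype, and over all 16 libraries for the difference between segments, with Benjamini-Hochberg adjustment over all genes tested. The biological coefficient of variation was 0.715 in the proximal and 0.737 in the distal fit. Log2 CPM within libraries 1 and 2 or 3 and 4 had a prior count of 0.5, and the library series term parted the same pairs of numbers. The genes described one by one were the member of each class with the highest mean FPKM, members with an unadjusted p under 0.05 in a genotype comparison or its difference between segments, and the 3 with the smallest p between WT segments. Of each list of related genes, at most the 2 with the smallest p in each genotype comparison were named. Others account for their classes. The members and lists were chosen with earlier results of these data known. Alternatives were DESeq2 1.42.0, RLE factors, no filter, RUVr with 4 factors (likelihood ratio test), replicate or library series terms, all libraries in 1 fit and leaving out each library. Promoters came from RefSeq (GRCm38.p6), and 15 members without an entry were not searched. Results of some members are not reported here, also in the plots.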

Additional observations from a re-analysis of the deposited data

Results flagged for a closer look

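In 56 groups of 4 libraries, covering the members that the rule for naming genes selected, 5 had a library whose gap to the nearest other library exceeded Dixon's limit for 4 values. The limit's rate of about 1 in 20 applies to independent, normally distributed values. These CPM, often at 0, are not such values, so no comparison with chance is drawn. Of the 5, 3 were the library labelled HSCR distal 1, which was high for Grik1 (1.12 CPM, the others at 0), Grik3 (3.49 CPM, the next at 0.59) and Grin1 (6.82 CPM, the next at 0.54). The same library had 94.7 CPM of Ednrb and 1037 CPM of the neuron list, and the part of this in the receptor values was not tested. Grin3b was high in WT proximal library 2 (4.22 CPM, the next at 0.69), and Grm4 in HSCR proximal library 2 (4.63 CPM, the next at 0.55). Gabrp and the other members outside that rule were not checked in this way.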

How the results depend on the processing

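The number of members called at an adjusted p under 0.05 was 0 in every comparison under DESeq2, RLE factors, no filter, the block, the series term and each library left out, but RUVr with 4 factors gave 13 in the proximal colon, 10 in the distal colon, 9 between WT segments and 6 between HSCR segments. At an unadjusted p under 0.05 the numbers were 1, 5, 0, 1 and 0 for the proximal, distal, WT segment, HSCR segment and between-segment tests. RUVr gave 15, 14, 12, 9 and 7. No filter gave 4, 11, 1, 2 and 1. DESeq2 gave 5 in the proximal, 3 in the HSCR segment and 2 in the between-segment test. The series term gave 11, 2 and 3, and the replicate block 8, 2 and 2, in the proximal, distal and WT segment tests. All 16 libraries in 1 fit gave 3 (proximal) and 10 (distal). Leaving out 1 library gave 0 to 3, 1 to 10, 0 to 0, 1 to 6 and 0 to 4. Leaving out both HSCR libraries numbered 1, chosen after the data were seen, gave 6 in the HSCR segment and 3 in the between-segment test. The cause was not tested. At an adjusted p under 0.05, RUVr called 21% of all genes tested for the proximal genotype comparison and 9.51% for the distal one. For the other counts under these alternatives, shares over all genes are not given. Those counts therefore show dependence on the setting and no result about the receptors.

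Same-numbered libraries did not deviate together throughout. Their correlations were -0.126 to 0.269 for proximal and -0.238 to 0.428 for distal pairs, 0.0993 to 0.436 between WT segments and -0.0201 to 0.384 between HSCR segments. For libraries with different numbers they were -0.448 to 0.423, -0.440 to 0.334, -0.423 to 0.415 and -0.360 to 0.289. Every same-numbered pair between WT segments was thus positive. Libraries 1 and 2 share numbers in their names across groups, but no label ties a number to a mouse or litter. The replicate block was therefore kept as an alternative, and a pairing is not excluded. Distal log2 fold changes that changed sign were those of Gabbr1 (0.0386 with RUVr, 0.0219 with the block, 0.35 with the series term), Gria3 (0.12 with RUVr, 0.14 with the block), Grin1 (0.57 with RUVr, 0.36 with the series term), Grm7 (4.36 with RUVr, 1.35 with the block, 1.46 with the series term) and Grik5 (0.0394 with the series term). The median of the between-segment test was 0.15 with the block and 0.52 with the series term, beside -0.37. With 1 library left out, fold changes ranged in the proximal colon from -0.65 to 0.23 for Gabra3, -0.43 to 0.20 for Gria3 and -1.69 to 0.19 for Grin3b, and in the distal colon from -0.72 to 0.11 for Gabbr1, -0.42 to 0.28 for Gria3, -0.32 to 0.15 for Grik5 and -0.93 to 1.12 for Grin3b, and the between-segment median from -1.11 to 0.24. Distal Grik1 ranged from -11.19 to -4.23 and Grin1 from -4.95 to -1.07.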
